A study of Sus scrofa with 24 samples.

Results

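Livers of pig fetuses with high levels of granulocyte transcripts were compared with livers at low levels, and 16 of the 24 livers of the series entered this comparison. The granulocyte score of a liver was the mean of the z-scores of 4 genes, MPO, S100A8, S100A9 and S100A12, where a z-score gives the distance of a level from the gene's mean over the 24 arrays in SD. The 8 livers with the highest score formed the high score group and the 8 with the lowest score the low score group, while the 8 livers between them were not compared. The livers were thus chosen by measured values and not by labels, so the 4 score genes are described without a test and were left out of all tests. All livers came from F2 fetuses at 63 days post conception (dpc) of a cross of the breeds DL (German Landrace) and Pi (Pietrain), and the tissue was frozen without any treatment named in the labels. RNA of each fetus was hybridized to 1 Affymetrix Snowball array, and the levels given are log2 values that the authors made with the RMA algorithm. The labels identify an array by the number of its fetus alone. Growth group, sex and dam could not be mapped to the fetuses, and their part in any difference was not tested. The fetuses include siblings, and the p-values below treat the livers as independent.

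The fetal liver forms blood as well as bile and plasma proteins, and islands of erythroid, granulocyte and megakaryocyte precursors lie among its hepatocytes. Granulocytes, mostly neutrophils, carry granules loaded with antimicrobial proteins and make oxidants when they meet microbes. Their granule proteins are made stage by stage, those of the azurophil granules in the promyelocyte and those of the later granules as the cell matures.

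Among the genes that formed the score, MPO encodes the myeloperoxidase of the azurophil granules, and S100A8, S100A9 and S100A12 encode the calgranulins, calcium-binding proteins that fill the cytosol of neutrophils and monocytes. In the pig reference assembly Sscrofa11.1 the calgranulin genes follow each other on a chromosome, with S100A12 as the next gene after S100A8 and S100A9 as the next but 1. Fetuses 311 and 312 stood far above all other livers with scores of 2.97 and 2.90. The other 6 livers of the high score group had scores of 0.771 in fetus 307, 0.387 in fetus 272, 0.0142 in fetus 370, 0.00775 in fetus 281, -0.0271 in fetus 340 and -0.0336 in fetus 329. The low score group ranged from -0.829 in fetus 327 to -0.464 in fetus 313, with a median of -0.682. The score thus fell off steeply within the high score group and then changed in small steps. The last liver inside the high score group, fetus 329 at -0.0336, lay next to fetus 324 outside it at -0.0620, and the first liver inside the low score group, fetus 313 at -0.464, lay next to fetus 338 outside it at -0.363.

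**Figure D1:**
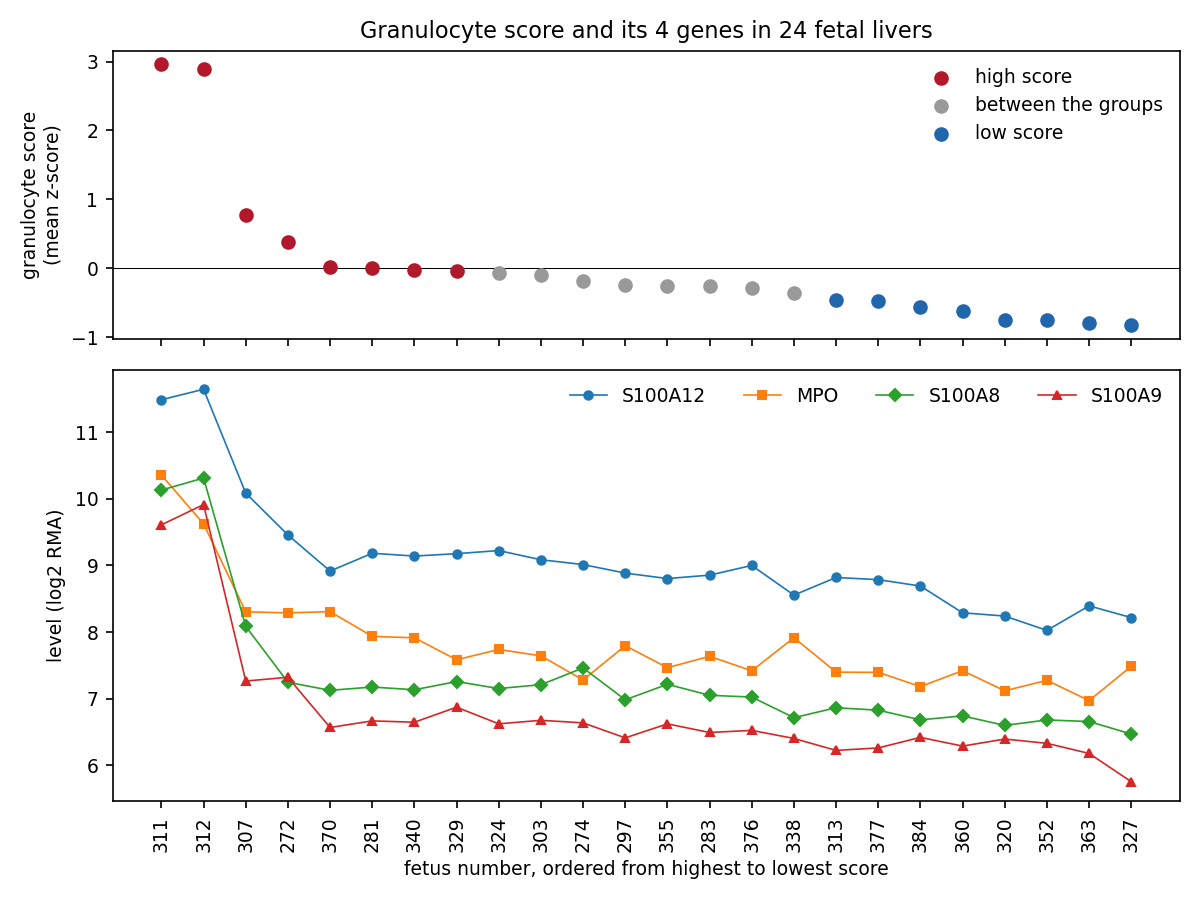
The upper panel plots the granulocyte score (mean z-score of 4 genes) of each of the 24 livers and the lower panel the log2 RMA level of each score gene, with livers ordered along the x axis from the highest to the lowest score and coloured by group. Fetuses 311 and 312 have scores of 2.97 and 2.90, while the other 22 livers lie between -0.829 and 0.771.

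The level of MPO was 10.36 in fetus 311 and 9.62 in fetus 312, between 7.58 and 8.31 in the other 6 livers of high score and between 6.97 and 7.49 in the 8 livers of low score. S100A8 reached 10.13 and 10.31 in fetuses 311 and 312, against 7.12 to 8.08 in the other 6 livers of high score and 6.47 to 6.86 in those of low score. S100A9 reached 9.61 and 9.91, against 6.57 to 7.32 and 5.75 to 6.42 in the same sets of livers. S100A12 had the highest signal of the score genes in every liver, with 11.49 and 11.64 in fetuses 311 and 312, 8.91 to 10.08 in the other 6 and 8.02 to 8.82 in the livers of low score, but signals of different probe sets cannot be set against each other as amounts. The groups do not overlap in any of the 4 genes, as their choice on these values implies.

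The rule that formed the groups also set a repeat without fetuses 311 and 312, so results are given with and without them. These fetuses stood apart from the other livers on the first principal component. The probe sets of the score genes entered this component, so it is not separate from the score. On this component, which held 20.9% of the variance and whose sign is arbitrary, they lay at 18.1 and 17.8, while the other 22 livers reached at most 11.9. The high score group ranged on this component from -9.75 to 18.1 and the low score group from -10.7 to 4.45. The array medians did not follow the score, with 2.81 to 2.88 in livers of high score and 2.82 to 2.89 in livers of low score. RMA normalizes the arrays to each other, so their near-equal medians do not check array quality. The median of the 69 background controls was 1.48 to 1.62 in livers of high score and 1.48 to 1.58 in livers of low score. The 95th percentile of these controls lay between 6.52 and 6.89 on the 24 arrays, so levels near 6 and 7 overlap with the upper part of the background. For the repeat, the score was formed again on the 22 livers without fetuses 311 and 312, which brought fetuses 324 and 303 into the high score group and left the 8 livers of low score the same. Both comparisons therefore share the livers of low score and 6 livers of high score.

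No gene passed the test between the 8 livers of high and the 8 of low score. Of 3375 genes tested with limma, 0 had an adjusted p under 0.05 (0% of all tested, the background for the counts of members below), and the smallest adjusted p was 0.427. At an unadjusted p under 0.05, 186 genes were higher in livers of high score and 95 lower, together 8.33% of those tested. A variant of limma with a mean-dependent and robust prior also called 0 genes. The median difference over all genes was 0.0097 on the log2 scale, and 53.5% of the differences were positive. In the repeat without fetuses 311 and 312, 1 gene passed (0.0296% of those tested), 170 genes were higher and 38 lower (1.13%) at an unadjusted p under 0.05, together 6.16%, the median difference was 0.0214 and 59.7% of the differences were positive. Liver is a mixture of cells, so more granulocytes and more RNA of these genes per granulocyte cannot be told apart in these values.

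The gene that passed in the repeat was SERPINB1, which encodes an inhibitor of the serine proteases of neutrophil granules. Its level was 9.83 and 9.86 in fetuses 311 and 312, between 7.31 and 8.01 with a median of 7.50 in the other 6 livers of high score, and between 6.58 and 7.05 with a median of 6.94 in the 8 livers of low score. Every liver of high score lay above every liver of low score, which held for 3 genes in this direction (0.0889% of those tested) and for 0 in the other. The difference of SERPINB1 was 1.22 ± 0.337 (SE, n = 8 and 8) with fetuses 311 and 312, a 2.34-fold higher level at an adjusted p of 0.583 in limma. Without these fetuses SERPINB1 rose by 0.61 ± 0.0970 (SE, n = 8 and 8), 1.52-fold, at an adjusted p of 0.0171 in limma. With each of the 16 livers of the repeat left out in turn, SERPINB1 differed by 0.54 to 0.64 and passed in 14 of 16 fits. It did not pass without fetus 272 of high score, at 0.58 and an adjusted p of 0.0574 in limma, or without fetus 327 of low score, at 0.59 and 0.0587.

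CD52 and LCP1 were the other genes whose groups did not overlap. CD52, a small glycoprotein on the surface of leukocytes, had levels of 9.09 and 9.05 in fetuses 311 and 312, a range of 6.70 to 7.58 with a median of 7.07 in the other 6 livers of high score, and a range of 6.23 to 6.62 with a median of 6.46 in livers of low score. LCP1, the actin-bundling plastin of leukocytes, had levels of 9.40 and 9.01 in these fetuses, 7.04 to 7.65 with a median of 7.15 in the other 6 and 6.62 to 6.95 with a median of 6.78 in livers of low score. In both genes fetuses 311 and 312 were the highest livers, and fetuses 272 and 307 came next within the high score group, at 7.58 and 7.47 for CD52 and at 7.32 and 7.65 for LCP1. The difference was 1.14 ± 0.298 (SE) for CD52 and 0.95 ± 0.294 for LCP1 with all livers, and 0.60 ± 0.118 and 0.43 ± 0.0825 in the repeat, where both had an adjusted p of 0.0778 in limma and did not pass. Both also had groups without overlap in the repeat, as did SERPINB1.

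**Figure D2:**
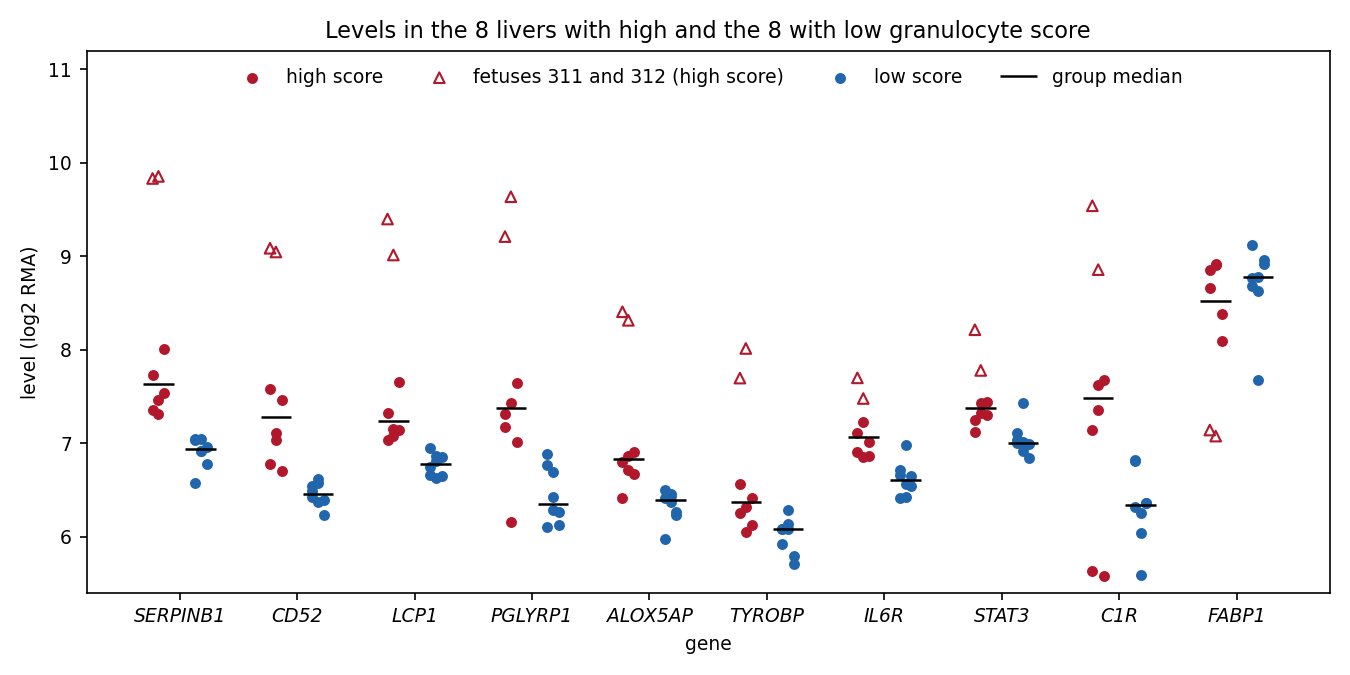
Log2 RMA levels of 10 genes in the 8 livers of high score (left, red) and the 8 of low score (right, blue), with open triangles for fetuses 311 and 312 and black lines for group medians. SERPINB1, CD52 and LCP1 do not overlap between the groups, whereas in FABP1 only fetuses 311 and 312 lie below all livers of low score.

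The other members of the granulocyte list were described next, from 47 genes other than the score genes, of which 29 have a named probe set on the array and 6 passed the filter on low levels. Of these 6, 0 passed the test in either direction with or without fetuses 311 and 312, as for all genes but 1. At an unadjusted p under 0.05, 4 were higher in livers of high score and 0 lower, where 5.51% of all tested genes were higher. The median difference of the 6 genes was 0.70, and 0.27 in the repeat, beside 0.0097 and 0.0214 over all tested genes. The largest belonged to PGLYRP1, a peptidoglycan-binding protein of neutrophil granules, with levels of 9.21 and 9.64 in fetuses 311 and 312, 6.15 to 7.65 with a median of 7.25 in the other 6 livers of high score and 6.11 to 6.89 with a median of 6.35 in livers of low score. It differed by 1.26 ± 0.370 (SE) with all livers and by 0.66 ± 0.172 in the repeat, at adjusted p-values of 0.583 and 0.591 in limma. Its groups overlap through 1 liver of high score, at 6.15.

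ALOX5AP, which hands arachidonic acid to the lipoxygenase of leukotriene synthesis, had levels of 8.41 and 8.32 in fetuses 311 and 312, 6.41 to 6.91 in the other 6 livers of high score and 5.98 to 6.50 in livers of low score. Its difference was 0.81 ± 0.246 (SE), and 0.38 ± 0.0840 in the repeat. SRGN, the proteoglycan serglycin that packs granule proteins, had levels of 9.51 and 8.50, 5.86 to 7.04 and 5.64 to 6.78 in the same sets of livers, and differed by 0.92 ± 0.376 and, in the repeat, by 0.38 ± 0.168. CYBB and CYBA encode the membrane subunits of the NADPH oxidase that makes the oxidants of the neutrophil. CYBB had levels of 8.46 and 8.67 in fetuses 311 and 312, but 6.10 to 7.07 in the other 6 livers of high score and 6.16 to 6.56 in those of low score, so that its difference was 0.60 ± 0.320 with these fetuses and 0.10 ± 0.110 in the repeat. CYBA differed by 0.37 ± 0.161 and in the repeat by 0.16 ± 0.0956. ARG1, an arginase of neutrophil granules in human that is also the urea cycle enzyme of hepatocytes, was the only one of the 6 with a negative difference, -0.09 ± 0.111, and 0.05 ± 0.0930 in the repeat. Its levels were 8.19 and 8.23 in fetuses 311 and 312, 8.49 to 9.04 in the other 6 and 8.32 to 8.92 in livers of low score.

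The 23 members below the filter have levels near or under the background in most livers and were not tested. Of all 29 members on the array, 23 were higher in both fetuses 311 and 312 than in each of the other 22 livers (79.3%), where 3.9% of all 13751 named genes on the array were. MMP9, the gelatinase of neutrophil granules, had levels of 8.44 and 8.09 in these fetuses, 4.95 to 5.94 in the other 6 livers of high score and 4.23 to 5.06 in livers of low score. RETN, which encodes resistin, had levels of 8.40 and 8.11, 5.16 to 6.31 and 5.04 to 5.76 in the same order of livers. NCF1, a cytosolic subunit of the NADPH oxidase, had levels of 6.81 and 7.40, 4.03 to 4.86 and 2.98 to 4.08. LCN2, the lipocalin of the specific granules, had levels of 7.01 and 7.88, 4.79 to 6.11 and 4.40 to 4.92. The chemokine receptor CXCR2 had levels of 6.52 and 7.69 in fetuses 311 and 312, 5.42 to 5.67 in the other 6 and 5.20 to 5.79 in livers of low score. For CXCR2 the other 6 livers of high score thus lay within the range of low score. CSF3R, the receptor of granulocyte colony-stimulating factor, had levels of 6.63 and 6.52, 5.06 to 5.65 and 4.51 to 5.14. Other granule genes did not stand out: LTF, which encodes lactoferrin, lay at 1.85 and 2.33 in fetuses 311 and 312 and BPI at 3.71 and 3.80, within the range of the other livers. LTF averaged 1.83 over the 24 livers, near the medians of the background controls, 1.48 to 1.62. Its values therefore give no contrast to the genes above.

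Across all livers the level was also fitted as a straight line on the score, which uses the livers between the groups. Over 24 livers, 151 genes rose (4.47% of those tested) and 115 fell (3.41%) with the score at an adjusted p under 0.05 in limma, together 266 genes or 7.88%. Fetuses 311 and 312 form a cluster of their own on this axis, and the count rests on them. Over the other 22 livers 6 genes rose and 0 fell (0.178%), while 75 fell at an unadjusted p under 0.05 (2.22%). Of the 151 genes that rose over 24 livers, both fetuses were above all others in 115, and of the 115 that fell, both were below all others in 63. Among all 3375 genes both were above in 4.39% and below in 2.81%. When the score was replaced by its rank, 20 genes rose and 0 fell over 24 livers (0.593%), with 187 that fell at an unadjusted p under 0.05 (5.54%). Over 22 livers 4 rose and 0 fell with the rank (0.119%), with 62 that fell at that p (1.84%).

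The 6 genes that rose with the score over the 22 livers were SERPINB1, LCP1, CD52, PGLYRP1, ALOX5AP and TYROBP, and SERPINB1, LCP1, ALOX5AP and CD52 also rose with its rank. These 4 and TYROBP had the most positive slopes, relative to their error, over the 24 livers. Per unit of score the level of SERPINB1 rose by 0.34 ± 0.0282 (SE) over 22 livers at an adjusted p of 2.4e-08 in limma, and by 0.81 ± 0.0244 over 24. LCP1 rose by 0.24 ± 0.0356 at an adjusted p of 0.000928 in limma over 22 livers and CD52 by 0.32 ± 0.0576 at 0.00787. The slopes over 22 livers were 0.37 ± 0.0696 for PGLYRP1, 0.20 ± 0.0406 for ALOX5AP and 0.16 ± 0.0350 for TYROBP, with adjusted p-values of 0.0145, 0.0322 and 0.0473 in limma. The score unit is that of its own set of livers, so slopes over 24 and 22 livers are not on the same scale.

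**Figure D3:**
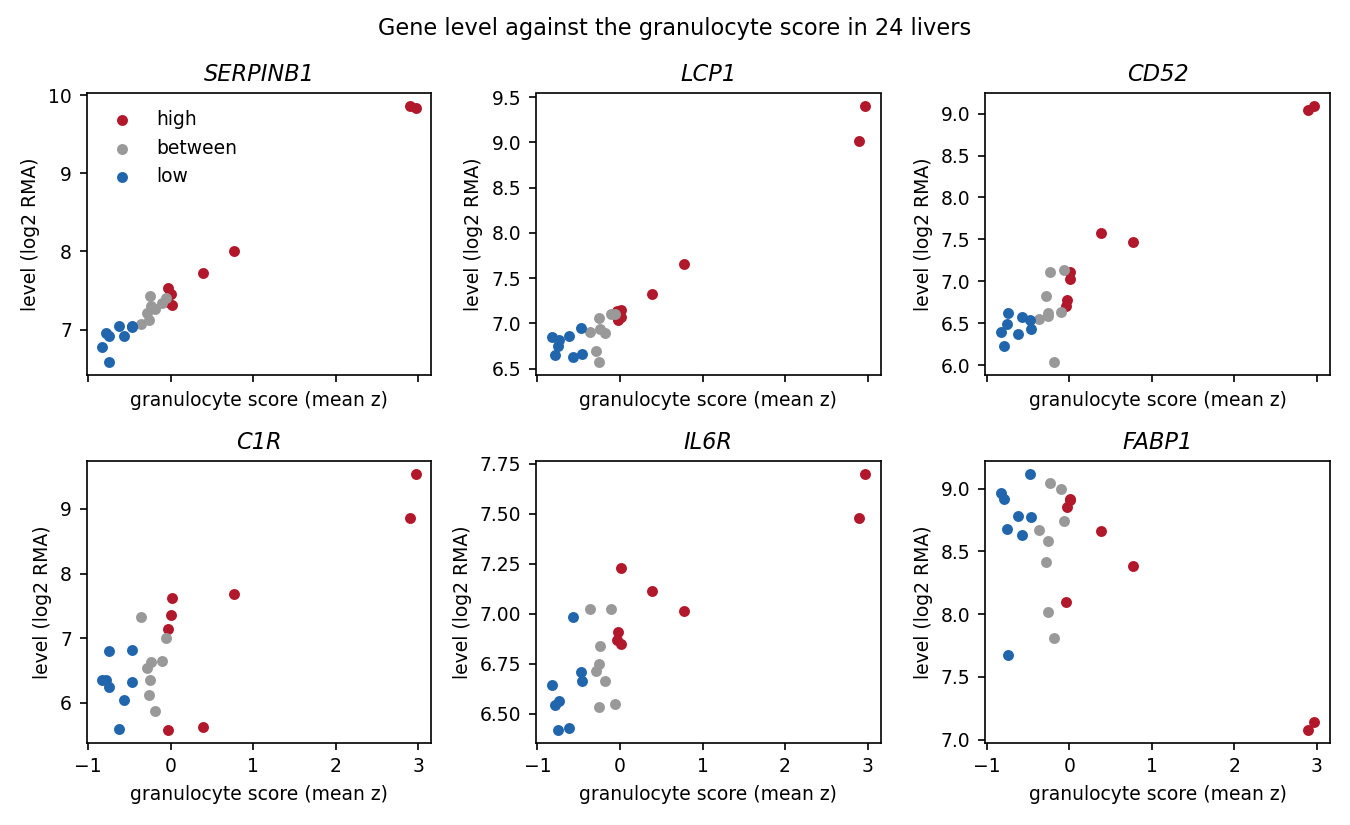
Log2 RMA level of 6 genes (y axis) against the granulocyte score over 24 arrays (x axis, mean z-score), with 1 point per liver coloured by group. SERPINB1, LCP1 and CD52 rose with the score over the 22 livers without fetuses 311 and 312 as well, whereas the low FABP1 levels of 7.14 and 7.08 occur in fetuses 311 and 312.

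TYROBP, the adaptor DAP12 of activating receptors on myeloid and natural killer cells, had levels of 7.70 and 8.01 in fetuses 311 and 312, 6.05 to 6.56 in the other 6 livers of high score and 5.71 to 6.29 in those of low score. It was listed with the macrophage genes, where it had the largest difference, 0.67 ± 0.240 (SE) with all livers and 0.29 ± 0.0863 in the repeat. Of the 12 macrophage genes tested, 0 passed the test, 1 was higher and 0 lower at an unadjusted p under 0.05 (5.51% and 2.81% of all tested genes), and the median difference was 0.04, and 0.05 in the repeat. Of these, LAPTM5, a lysosomal membrane protein of blood cells, had levels of 7.47 and 7.65 in fetuses 311 and 312, but 6.23 to 6.45 in the other 6 livers of high score and 6.14 to 6.56 in livers of low score. C1QA, which encodes a chain of C1q made mainly by macrophages, lay between 8.60 and 9.11 in livers of high score and between 8.63 and 9.10 in livers of low score, a difference of 0.01 ± 0.0828. CD14, a surface marker of monocytes and macrophages that did not pass the filter, lay at 5.75 and 5.69 in fetuses 311 and 312, at 4.30 to 5.69 in the other 6 livers of high score and at 4.36 to 5.11 in livers of low score. MARCO, a scavenger receptor of macrophages that did not pass the filter either, lay at 6.17 and 6.09, at 5.20 to 5.69 and at 4.97 to 5.41 in the same sets of livers. Of the 20 macrophage genes on the array, 5 (MARCO, TYROBP, FCER1G, LAPTM5 and CYBB) were higher in both fetuses 311 and 312 than in each of the other 22 livers, or 25% beside 3.9% of all named genes. CYBB is on the granulocyte list too and was counted in both. The macrophage genes CD163, C1QA, C1QC, TIMD4, MRC1 and VSIG4 were not higher in both of these fetuses than in each other liver. MRC1 lay at 7.25 and 7.54 in fetuses 311 and 312, and between 7.16 and 7.68 in livers of low score. The part of monocytes and macrophages in the differences was not tested.

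More genes with a general role in leukocytes or in the cytoskeleton rose with the score over 24 livers, and none of those named here passed over 22. GMFG, a regulator of actin branching in blood cells, had levels of 8.08 and 8.02 in fetuses 311 and 312, 6.24 to 6.61 in the other 6 livers of high score and 6.09 to 6.37 in livers of low score. S100A11, a further calcium-binding S100 protein, had levels of 8.21 and 7.9994, 6.52 to 6.79 and 6.32 to 6.63. PTAFR, the receptor of platelet-activating factor, had levels of 7.61 and 7.78, 6.27 to 6.65 and 5.92 to 6.57. Their differences were 0.58 ± 0.238, 0.51 ± 0.219 and 0.51 ± 0.187 (SE), and 0.20 ± 0.0610, 0.17 ± 0.0673 and 0.21 ± 0.0832 in the repeat. LTA4H, which makes the neutrophil attractant leukotriene B4, differed by 0.45 ± 0.176 and in the repeat by 0.19 ± 0.0930. The cytoskeletal genes MSN and TMSB4X, which encode moesin and thymosin beta 4, differed by 0.42 ± 0.145 and 0.40 ± 0.140, and in the repeat by 0.23 ± 0.0717 and 0.23 ± 0.0778. These genes were named after their values had been seen.

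**Figure D4:**
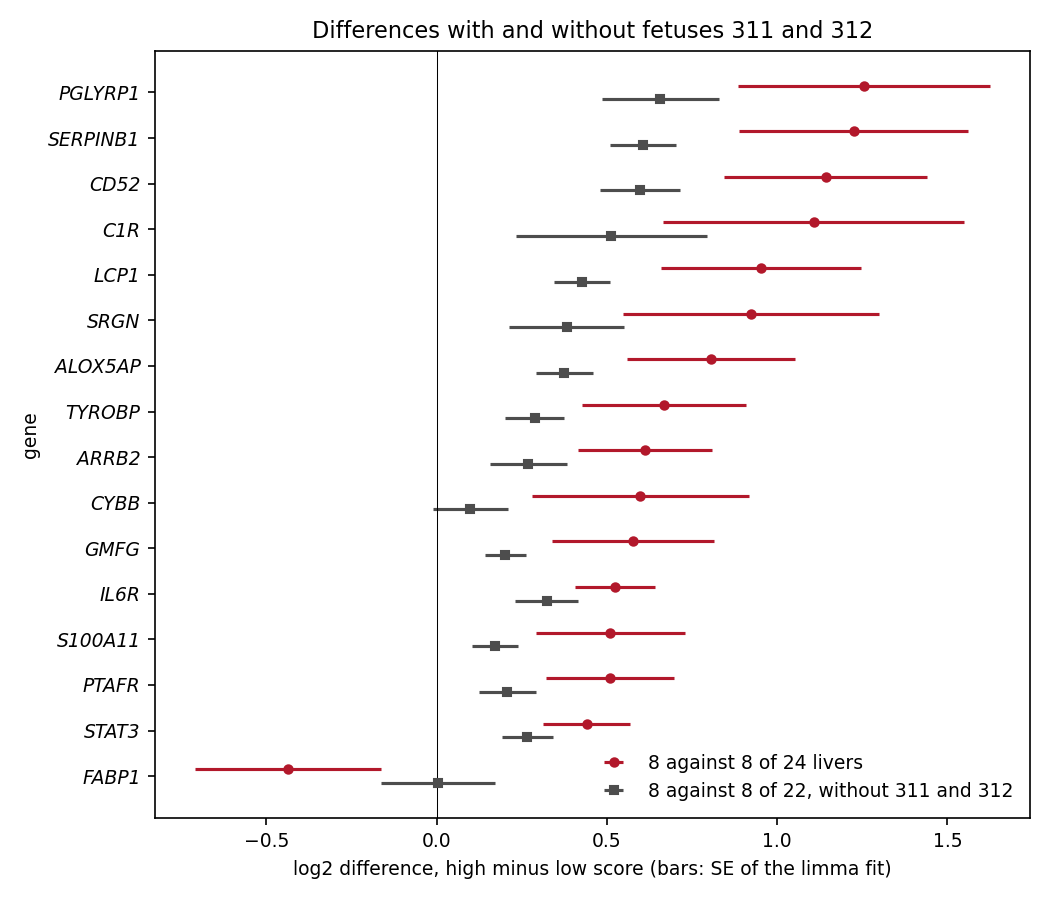
Log2 differences between livers of high and low score (x axis) for 16 genes, with circles for the comparison over 24 livers and squares for the repeat without fetuses 311 and 312, and bars for the SE of the limma fit. The difference of SERPINB1 is 1.22 with and 0.61 without these fetuses, and that of FABP1 is -0.44 with and 0.00 without them.

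Lists of other blood cells were examined because the liver holds them too. Among 13 progenitor genes on the array, 3 were tested and 0 passed. SPI1, MYB, RUNX1 and ERG were higher in both fetuses 311 and 312 than in each other liver. These 4 make up 30.8% of the progenitor genes on the array, beside 3.9% of all named genes. The progenitor genes CD34, KIT, FLT3, PROM1, MEIS1, HOXA9, GATA2, CEBPA and HHEX were not higher in both of these fetuses than in each other liver. KIT lay at 6.62 and 6.27 in fetuses 311 and 312, and between 5.91 and 7.33 in livers of low score. Of 20 lymphocyte markers on the array 1, CD4, passed the filter, with levels of 6.60 to 7.36 in livers of high score and 6.83 to 7.36 in livers of low score, a difference of -0.03 ± 0.104 (SE). Of the others NKG7, a granule protein of natural killer and cytotoxic T cells, was the 1 that was higher in both fetuses 311 and 312 than in each other liver, at 7.20 and 6.82, against 4.82 to 5.64 in the other 6 livers of high score and 4.18 to 5.34 in livers of low score. The T and B cell markers CD3E and MS4A1 lay at 1.48 and 1.56 and at 1.04 and 1.77 in these fetuses. Of the 5 megakaryocyte genes tested, 5 had positive differences, beside 53.5% of all genes and 59.7% in the repeat, with a median of 0.23, and 0.18 in the repeat. At an unadjusted p under 0.05, 1 was higher, beside 5.51% of all genes. That was CLEC1B, a receptor on platelets, with levels of 7.15 and 7.14 in fetuses 311 and 312, 6.36 to 7.03 in the other 6 livers of high score and 6.22 to 6.73 in those of low score. It differed by 0.27 ± 0.117 (SE), and by 0.18 ± 0.0961 in the repeat. Among 12 megakaryocyte genes on the array, 3 were higher in both fetuses 311 and 312 than in each other liver (25%, beside 3.9% of all named genes). Of 18 erythroid genes tested, 3 had positive differences (53.5% of all genes), with a median of -0.06. In the repeat 11 were positive, near the 59.7% of all genes, with a median of 0.01. SLC4A1, the anion exchanger of the red cell membrane, was the erythroid gene lower at an unadjusted p under 0.05, with 10.06 and 9.76 in fetuses 311 and 312, 10.15 to 10.64 in the other 6 livers of high score and 10.32 to 10.76 in livers of low score. Its difference was -0.23 ± 0.101, and -0.09 ± 0.0867 in the repeat. With the score as a line over 24 livers 5 erythroid genes fell, where 3.41% of all tested genes did, among them SLC4A1, the transferrin receptor gene TFRC and HEMGN, a nuclear protein of blood-forming cells, and 0 of all tested genes fell over 22 livers.

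**Figure D5:**
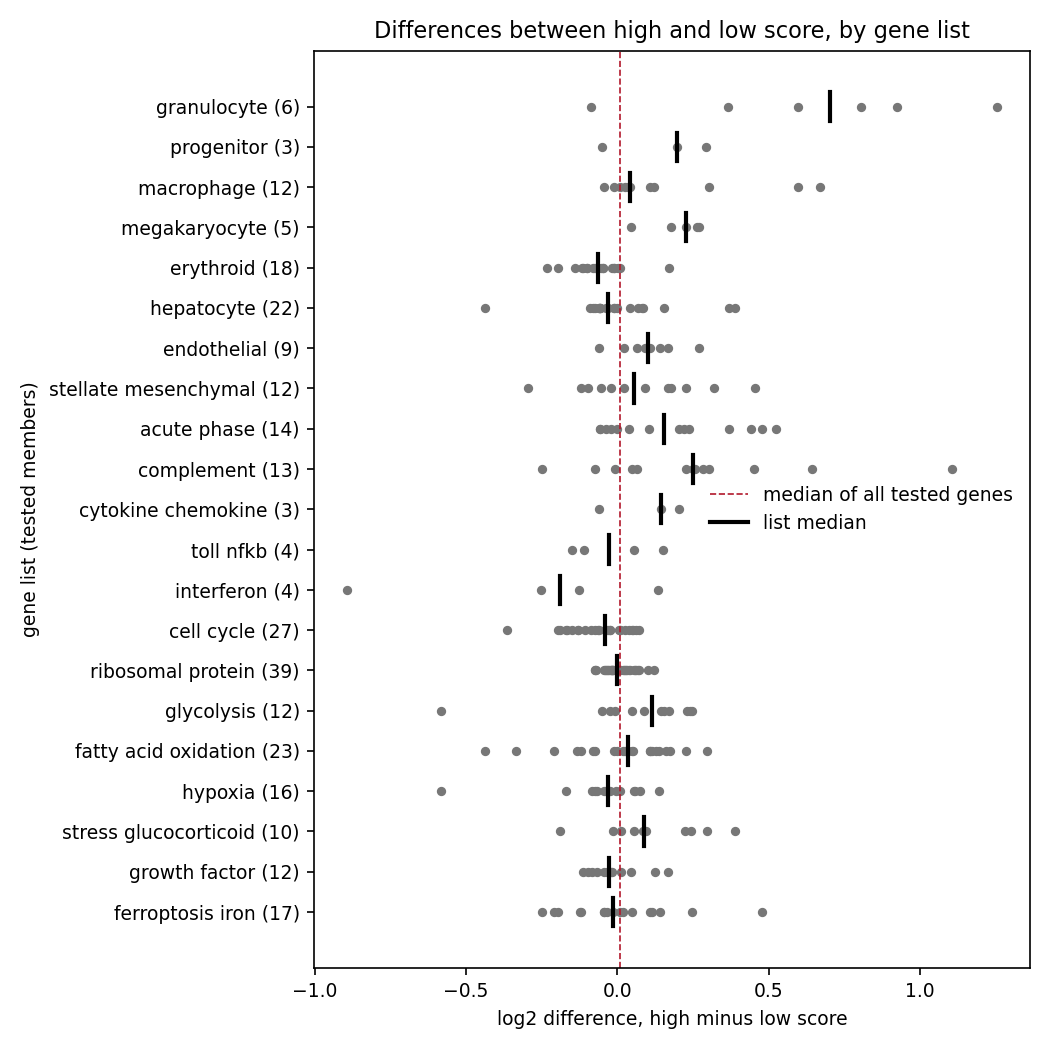
Log2 differences between livers of high and low score (x axis) of the tested members of each gene list (rows, with the number of members), where each grey dot is a gene, each black bar a list median and the dashed line the median over all 3375 genes. The granulocyte list has a median of 0.70 and the complement list of 0.25, while ribosomal protein genes lie close to 0.

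Complement proteins circulate in plasma and are made mainly by hepatocytes. Of 13 complement genes tested, 0 passed, 2 were higher and 0 lower at an unadjusted p under 0.05 (5.51% and 2.81% of all tested genes), and the median difference was 0.25, and 0.13 in the repeat. C1R, a protease of the first complement component, had levels of 9.54 and 8.86 in fetuses 311 and 312, 5.58 to 7.68 with a median of 7.25 in the other 6 livers of high score and 5.59 to 6.83 with a median of 6.34 in livers of low score. It differed by 1.11 ± 0.443 (SE), and by 0.51 ± 0.280 in the repeat, and 2 livers of high score lay near the bottom of the range. C1S, its partner, differed by 0.64 ± 0.386 and by 0.31 ± 0.309. C3, the central component, had levels of 12.30 and 11.93 in fetuses 311 and 312, 10.66 to 11.57 in the other 6 and 10.30 to 11.41 in livers of low score, a difference of 0.45 ± 0.216, and of 0.21 ± 0.168 in the repeat. CD55, which protects cells from complement, differed by 0.28 ± 0.107 and by 0.12 ± 0.0741. With the score as a line over 24 livers 7 complement genes rose, where 4.47% of all tested genes did. Both fetuses were above the other 22 livers in 11 of the 24 complement genes on the array (45.8%, beside 3.9% of all named genes).

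Of 14 acute phase genes tested, 0 passed, 4 were higher and 0 lower at an unadjusted p under 0.05 (5.51% and 2.81% of all tested genes), and the median difference was 0.15, and 0.09 in the repeat. Of these, IL6R and STAT3, the receptor and the transcription factor of interleukin-6 signalling, do not encode plasma proteins. Which cells of the liver their RNA came from was not tested. IL6R had levels of 7.70 and 7.48 in fetuses 311 and 312, 6.85 to 7.23 with a median of 6.96 in the other 6 livers of high score and 6.42 to 6.99 with a median of 6.60 in livers of low score. It had the second smallest p of all tested genes, with a difference of 0.52 ± 0.117 (SE) at an adjusted p of 0.427 in limma, and 0.32 ± 0.0926 at 0.591 in the repeat. STAT3 had levels of 8.21 and 7.78, 7.13 to 7.44 and 6.84 to 7.43 in the same sets of livers, and differed by 0.44 ± 0.127 and by 0.27 ± 0.0752. Both rose with the rank of the score over 24 livers, at adjusted p-values of 0.0122 and 0.0177 in limma, and did not pass over 22 livers, at 0.231 and 0.349. HP, the haemoglobin-binding haptoglobin, ranged from 10.67 to 11.65 in livers of high score and from 10.19 to 11.07 in livers of low score, a difference of 0.37 ± 0.153, and of 0.24 ± 0.135 in the repeat. HAMP, the iron hormone hepcidin, differed by 0.48 ± 0.366 and by 0.33 ± 0.329, both within the spread of the livers.

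Hepatocyte genes differed little between the groups. Of 22 tested, 0 passed, and the median difference was -0.03, and 0.01 in the repeat. FABP1, the fatty acid binding protein of hepatocytes, had the lowest values of all livers in fetuses 311 and 312, 7.14 and 7.08, while the other 6 livers of high score lay between 8.10 and 8.92 and those of low score between 7.68 and 9.12. Its difference was -0.44 ± 0.273 (SE) with these fetuses and 0.00 ± 0.168 without them. TAT, the tyrosine aminotransferase induced by glucocorticoids, ranged from 8.60 to 10.73 in livers of high score and from 8.53 to 10.28 in livers of low score, a difference of 0.39 ± 0.271.

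The genes with the most negative slopes on the score over 24 livers, relative to their error, were ENDOD1, NXT2, SLC14A1, ENY2 and FABP1. SLC14A1, a urea transporter of red cells, had levels of 5.22 and 5.64 in fetuses 311 and 312, 6.11 to 6.63 in the other 6 livers of high score and 6.34 to 6.89 in those of low score. ENDOD1, an endonuclease-like protein, had levels of 6.05 and 6.28, 6.64 to 7.59 and 6.73 to 7.74. Their differences were -0.39 ± 0.164 and -0.47 ± 0.209 (SE), and -0.19 ± 0.0931 and -0.16 ± 0.142 in the repeat. NXT2, a cofactor of mRNA export, differed by -0.23 ± 0.110 and by -0.08 ± 0.0782, and ENY2, a transcription and export factor, by -0.30 ± 0.113 and by -0.15 ± 0.0616. Over 22 livers 0 of these 5 passed, where the adjusted p-values in limma were between 0.766 for ENY2 and 0.975 for FABP1.

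Among the remaining lists, those of the cell cycle (27 genes tested), ribosomal proteins (39) and fatty acid oxidation (23) had median differences of -0.04, -0.0007 and 0.03, and -0.04, 0.01 and 0.07 in the repeat, with 0 genes called. The 12 glycolysis genes had a median of 0.12, and 0.07 in the repeat, and 7 of the 18 on the array were above all other livers in both fetuses 311 and 312, beside 3.9% of all named genes. PGAM1 and ENO1, which act late in glycolysis, differed by 0.24 ± 0.115 and 0.25 ± 0.125 (SE), and by 0.11 ± 0.0814 and 0.17 ± 0.107 in the repeat. SLC2A1, a glucose transporter, went the other way, with 7.90 to 9.54 and a median of 8.60 in livers of high score, against 8.49 to 9.91 and a median of 9.13 in livers of low score, a difference of -0.58 ± 0.219, and of -0.32 ± 0.211 in the repeat. Of 12 stellate and mesenchymal genes tested, 2 were higher at an unadjusted p under 0.05 (5.51% of all tested genes), SPARC, a matrix protein, by 0.45 ± 0.138 and by 0.29 ± 0.128 in the repeat, and the filament gene VIM by 0.32 ± 0.113 and by 0.20 ± 0.0818. The 4 interferon genes tested had a median of -0.19, and -0.15 in the repeat. IFI6 ranged from 5.29 to 8.15 in livers of high score and from 6.47 to 9.69 in livers of low score, a difference of -0.89 ± 0.439, and of -0.61 ± 0.376 in the repeat, and fetuses 312 and 311 had levels of 5.29 and 6.09.

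Large differences alone did not mark the genes that followed the score. ACTC1, the cardiac actin gene, had the most positive difference of all tested genes, 1.37 ± 0.487 (SE), with levels of 7.24 to 8.53 in livers of high score and 3.78 to 8.22 in livers of low score. In the repeat ACTC1 differed by 0.61 ± 0.643. OSTC, a subunit of the oligosaccharyltransferase, had the most negative, -1.39 ± 0.566, with 4.38 to 9.17 and 7.60 to 8.94, and -1.08 ± 0.606 in the repeat. In both genes several livers at low levels made the spread wide. For ACTC1 these were fetuses 320, 352 and 363 of low score, at 5.54, 5.42 and 3.78. Fetuses 303 and 324, which entered the high score group only in the repeat, also had low ACTC1 levels, at 4.48 and 5.41. For OSTC the livers at low levels were fetuses 272 and 307 of high score, at 4.42 and 4.38. PERP, a membrane protein of epithelial junctions, had the smallest p of all tested genes, 0.000157, with levels of 7.13 to 7.65 in livers of high score and 6.65 to 7.27 in livers of low score, a difference of 0.43 ± 0.0907 at an adjusted p of 0.427 in limma. Fetuses 311 and 312, at 7.13 and 7.36, were not its highest livers. Its difference in the repeat was 0.30 ± 0.133 at an adjusted p of 0.785 in limma. Fetuses 303 and 324, which entered the high score group only in the repeat, had PERP levels of 6.80 and 6.66. With groups of 6 in the repeat, which do not hold fetuses 303 and 324, PERP differed by 0.57 ± 0.0880. It passed there, at an adjusted p of 0.0336 in limma. ACTC1, OSTC and PERP were named after their values had been seen.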

How the data were processed

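The deposited log2 table was used as given. Per the labels and methods, the authors checked the arrays with GCOS 1.1.1 and made the log2 values with RMA in the Expression Console software, with the genome build of the probes not given in those sources. Symbols come from an old platform annotation, which names 26426 of 47845 probe sets for 13755 symbols, and 6 list genes were found through synonyms in RefSeq. A gene was tested when a probe set reached a log2 level of 6 in at least 18 of 24 arrays, with the probe set of highest mean level. Groups of 8 livers were compared with limma 3.58.1 in R 4.3.3 (lmFit and eBayes), with Benjamini-Hochberg adjustment over 3375 genes and a threshold of 0.05, and the fit was tested on simulated data. The mixed model of the methods needs growth group, sex and dam and was not run. The members and lists were chosen with earlier results of these data known. Named were the score genes, genes called, members of each list with the largest differences or highest levels, the 5 most positive and 5 most negative slopes on the score, and others marked as such. Alternatives were other filters, probe sets, group sizes, scores and covariates, and each liver left out. The slopes over 22 livers and the alternatives of the repeat, leaving out each liver included, were added after seeing the data. Arrays have no read depth, and the number of livers limits the precision. Figures were drawn with matplotlib 3.10.9.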

Additional observations from a re-analysis of the deposited data

Results flagged for a closer look

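In all, 94 sets of 8 livers were examined for a liver far from the others (47 genes in each group, without the score genes). Of these, 7 had a gap between the extreme liver and its neighbour that was too wide for Dixon's test at its 95% critical value. Chance gives about 1 in 20 for independent sets. The sets share livers, and many of the genes were named for their values in them, so that rate is no yardstick for the 7. In livers of high score the flagged livers were fetus 312 for ENY2, at 6.82 with the next liver at 7.64, and fetus 311 for HP, at 11.65 with the next at 11.12. In livers of low score they were fetus 320 for FABP1, at 7.68 with the next at 8.63, and for STAT3, at 7.43 with the next at 7.11. Fetus 313 stood apart for ENDOD1, at 6.73 with the next at 7.39, and for SPARC, at 8.999 with the next at 8.40. Fetus 360 had a C1S level of 5.80, with the next at 6.80. The gap is taken to the nearest liver, so livers that stand apart together are not flagged. SERPINB1, at 9.83 and 9.86 in fetuses 311 and 312, is such a case.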

How the results depend on the processing

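The comparison of 8 livers of high with 8 of low score called 0 genes under the other filters, probe sets, array scalings, scores, group sizes of 6 and 12, covariate and prior tried, at a threshold of 0.1, and without each liver in turn (0 to 0). It called 266 genes with the score as a line, 20 with its rank, 1 when the groups were formed again without fetuses 311 and 312 and 1 when these fetuses were dropped from the groups, and 6 and 4 with the score and its rank over 22 livers. The repeat without these fetuses called 1 gene, and 2 with a limit of 5, 3 with the limit in all 24 arrays, 0 with no filter, 2 with groups of 6, 0 with MPO alone as score, 6 and 4 with the score and its rank as a line, 2 with groups of 11 and 3 at a threshold of 0.1. Without each liver in turn the repeat called 0 to 2. The cause of these changes was not tested. Of the named genes, 5 changed sign under some alternatives, where their differences or slopes lay near 0. LAPTM5 was at -0.0019 with fetuses 311 and 312 dropped, and FABP1 at 0.0031 with the groups formed again without these fetuses. In the comparison that holds these fetuses, LAPTM5 and FABP1 were not near 0. Without each liver in turn, LAPTM5 stayed at 0.16 to 0.36 and FABP1 at -0.58 to -0.27. C1QA was at -0.00675 with aligned array medians, -0.062 with groups of 6, -0.026 with the groups formed again, -0.023 with these fetuses dropped, -0.016 and -0.0013 as slopes on the score and its rank over 22 livers, and from -0.030 to 0.045 without each liver in turn. ARG1 was at 0.055 with the groups formed again, 0.033 with these fetuses dropped, and 0.0019 and 0.00083 as slopes on the score and its rank over 22 livers. CD4 was at 0.0070 with the mean of all probe sets, 0.044 with groups of 6, 0.063 with MPO alone, 0.072 with the calgranulins alone, 0.021 and 0.00026 as slopes on the score and its rank over 24 livers, 0.0056 as slope over 22, and from -0.073 to 0.043 without each liver in turn. No paired analysis was possible because the labels give no groups and no numbers that pair livers. Levels near 6 and 7 overlap with the background, so small differences there, as in ALOX5AP or TYROBP, are approximate.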
